A study of Mus musculus with 6 samples.

Results

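Granzymes are serine proteases that cytotoxic lymphocytes store in granules and release into a target cell, and perforin, the product of *Prf1*, forms the membrane pore that lets them in. In the pregnant mouse uterus these genes are best known from the natural killer cells of the decidua, the maternal tissue around the conceptus, and the granzymes *Gzmd*, *Gzme*, *Gzmf* and *Gzmg* are prominent there. *Prl8a2* encodes a prolactin-related hormone made by decidual stromal cells. The 10 genes described here are the granzymes *Gzma*, *Gzmb*, *Gzmc*, *Gzmd*, *Gzme*, *Gzmf*, *Gzmg* and *Gzmn*, together with *Prf1* and *Prl8a2*, chosen by symbol from the 55401 genes of a count table of mouse embryo RNA. The first 9 are called the cytolytic genes below.

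RNA-seq was performed on lysates of whole embryos at embryonic day E10.5 to ask how an excess of the microRNA gene *Mir483* alters the transcriptome. The 5C embryos inherited from chimeric fathers an array of 5 tandem *Mir483* copies, placed by gene targeting in ES cells at the endogenous *Igf2* locus, and the WT embryos were littermates without the array, all on the C57BL/6J background. Each group had 3 libraries, each from a pool of 2 embryos that the study's methods give as male. The number of ES cell clones behind the 5C embryos is not stated. The libraries held from 6357343 (WT replicate 3) to 19151368 counts (WT replicate 1), so that the smallest level the depth could show, 3 counts, lay between 0.157 and 0.472 CPM (counts per 1000000 counts of the library).

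The edit itself was visible in every library. *Mir483* had 11, 5 and 2 counts in WT and 85, 51 and 36 counts in 5C, with no overlap, a log2 fold change of 3.05 ± 0.36 (SE) and an adjusted p of 0.169 in the quasi-likelihood F-test of edgeR. The sex-linked transcripts did not match pools of male embryos. *Xist*, the RNA of the inactive X chromosome of female cells, measured between 495 and 914 CPM in all 6 libraries, and the Y-linked *Ddx3y* had 11 counts in WT replicate 2 and 0 counts in 5C replicate 2, against 310 to 937 counts in the other 4. WT replicate 1 stood apart by visceral yolk sac transcripts, with 31359 counts of *Apob* against 179 to 3780 in the other 5 libraries. Values are therefore also given without these libraries.

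Of the cytolytic genes, 7 lie within 144.6 kb of chromosome 14 on the minus strand in GRCm38, from 56117626 to 56262260, in the order *Gzme*, *Gzmd*, *Gzmg*, *Gzmn*, *Gzmf*, *Gzmc*, *Gzmb*. *Gzma* and *Prl8a2* lie on chromosome 13 (113093825 to 113100981 and 27345673 to 27354216) and *Prf1* lies on chromosome 10 (61297833 to 61304680). The neighbours on chromosome 14 resemble each other closely. The coding sequences of *Gzmd* and *Gzme* were identical at 94.8% of 744 aligned bases, those of *Gzme* and *Gzmg* at 90.0% and those of *Gzmd* and *Gzmf* at 85.4%, whereas *Gzmb* and *Gzma* matched at 64.3%. This matters for the counts, since reads were 40 bases long. The longest run that *Gzmd* and *Gzme* share without a difference was 96 coding bases, and it is shown with the aligned bases of *Gzmg*, where capitals mark the bases that differ from *Gzmd*. The 3 sequences are read from GENCODE transcripts of GRCm38.
*Gzmd*, coding bases 410 to 505: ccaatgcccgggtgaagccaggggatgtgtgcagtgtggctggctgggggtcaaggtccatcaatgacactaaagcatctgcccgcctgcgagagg
*Gzme*, coding bases 398 to 493: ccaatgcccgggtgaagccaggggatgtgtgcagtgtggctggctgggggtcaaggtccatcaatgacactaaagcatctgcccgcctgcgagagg
*Gzmg*, coding bases 398 to 493: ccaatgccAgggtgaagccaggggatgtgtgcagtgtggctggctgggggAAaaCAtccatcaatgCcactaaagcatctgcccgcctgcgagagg

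A 40-base read from within the shared run fits *Gzmd* and *Gzme* equally, and only 6 of its bases part *Gzmg* from both. Over the whole transcripts, the share of 40-base windows found in no other annotated gene was 69.9% for *Gzme*, 70.6% for *Gzmd*, 73.9% for *Gzmg*, 74.8% for *Gzmf*, 90.3% for *Gzmc*, 91.3% for *Gzmn*, 99.3% for *Gzmb* and 100% for *Gzma*, *Prf1* and *Prl8a2*. *Gzmd* and *Gzme* had 168 windows in common. Counts of *Gzmd*, *Gzme*, *Gzmf* and *Gzmg* are thus uncertain relative to each other, since reads from the remaining windows fit more than 1 gene. For *Gzmf*, 115 of its 880 windows matched *Gm4022*, which is annotated on the opposite strand with 151 exon bases over those of *Gzmf*. Windows were matched on both strands. For reads assigned by strand, the unique share of *Gzmf* may thus be understated and its counts per kilobase of unique windows overstated.

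The promoters of the same genes resemble each other too. Sequences from 250 bases before to 50 after the start were given by RefSeq (GRCm38.p6) for 9 of the 10 genes, all but *Prl8a2*. Within the 250 bases before the start, *Gzmc*, *Gzmd*, *Gzme*, *Gzmf* and *Gzmg* matched each other at 84.4% to 95.6% of aligned bases, and *Gzmn* and *Gzmb* matched them at 55.5% to 64.4%. The letters TGACGTCA, the cyclic AMP response element (CRE), stood in 3 of the 9 promoters (*Gzmc*, *Gzmf* and *Gzmg*), against 1.79% of 32851 mouse promoters searched on both strands. The 60 bases around the element are shown on the strand of the gene, with the 8 element bases in capitals, because the 5 similar promoters differ within the element. They differ at other bases too.
*Gzmc*, chr14:56234671-56234730: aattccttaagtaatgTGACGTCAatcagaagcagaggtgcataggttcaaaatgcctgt
*Gzmf*, chr14:56211446-56211505: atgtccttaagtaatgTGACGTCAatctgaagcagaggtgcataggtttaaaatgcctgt
*Gzmg*, chr14:56159613-56159672: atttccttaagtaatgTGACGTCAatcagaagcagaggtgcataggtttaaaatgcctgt
*Gzmd*, chr14:56132611-56132670: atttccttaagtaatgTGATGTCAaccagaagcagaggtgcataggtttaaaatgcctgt
*Gzme*, chr14:56120644-56120703: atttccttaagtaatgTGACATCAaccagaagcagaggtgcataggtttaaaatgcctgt

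Counted from 1 at the first element base, with the CRE base first, *Gzmd* carried C4T and *Gzme* carried G5A. The letters TGTGGT, a binding motif of Runx factors, which act in lymphocytes, were found in 8 of the 9 promoters (all but *Gzmn*) against 16.8% of all promoters. The letters GGTGTGA, a T-box motif, were found in 0 of the 9 against 3.98%. The 5 similar promoters are not independent sequences, and a match is a description of letters and not of binding.

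Both mature microRNAs of the inserted gene were searched for in the 3′ UTRs of the members. Their sequences from RefSeq are shown with bases 2 to 8, the seed that pairs with a target, in capitals.
miR-483-3p: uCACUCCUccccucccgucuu
miR-483-5p: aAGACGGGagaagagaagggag
The matching letters AGGAGTG and CCCGTCT were found in the 3′ UTRs of 9.17% and 2.34% of 21785 genes. They were found in 0 of the 10 members, whose 3′ UTRs ran from 68 bases in *Gzma* to 754 in *Prf1*, against a median of 745 bases over all genes. Shorter UTRs hold fewer matches of any kind.

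The cytolytic genes were rare in every library. Together they had 24, 76 and 43 counts in WT and 200, 43 and 424 counts in 5C, which scaled to 1.26, 6.53 and 6.86 CPM for WT and to 12.1, 3.67 and 30.2 CPM for 5C. 5C replicate 3 alone held 52.4% of all 810 cytolytic counts. 5C replicate 1 came second, and 5C replicate 2 lay below WT replicates 2 and 3, so the groups overlapped. WT averaged 4.88 ± 3.14 CPM and 5C averaged 15.3 ± 13.5 CPM (SD, n = 3 each), a ratio of 3.14 that fell to 1.62 without 5C replicate 3, to 2.29 without WT replicate 1 and rose to 5.21 without both libraries low in Y-linked transcripts.

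**Figure D1:**
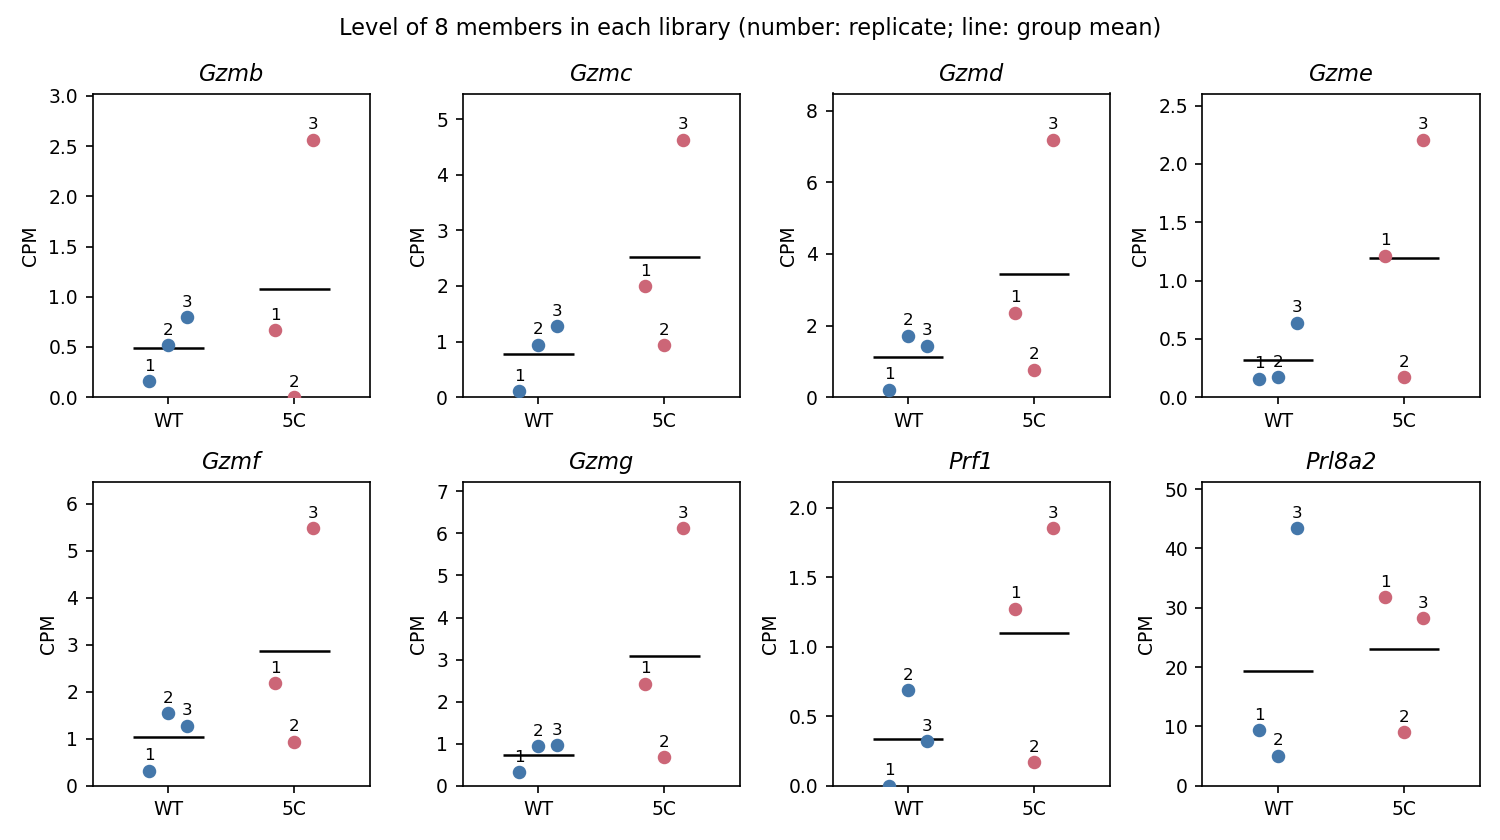
CPM of 8 members in the 3 WT and 3 5C libraries, each panel with its own linear axis from 0, each point 1 library with its replicate number and each line the group mean. In the 7 cytolytic panels 5C replicate 3 is the highest point and 5C replicate 2 lies within or below the WT range, whereas *Prl8a2* is highest in WT replicate 3, at 43.4 CPM.

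Among the granzymes of chromosome 14, *Gzmd* had the most counts, with 4, 20 and 9 in WT and 39, 9 and 101 in 5C. *Gzmg* had 6, 11 and 6 counts in WT and 40, 8 and 86 in 5C. *Gzmf* had 6, 18 and 8 counts in WT and 36, 11 and 77 in 5C. The 3 genes share a pattern in which 5C replicates 3 and 1 lie above every WT library while 5C replicate 2 and WT replicate 1 are lowest. *Gzmc*, with a larger share of unique windows than these 3 genes, had 2, 11 and 8 counts in WT and 33, 11 and 65 in 5C, with the same libraries highest and lowest. *Gzme* had 3, 2 and 4 counts in WT and 20, 2 and 31 in 5C, so that 4 of its 6 libraries held fewer than 5 counts.

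*Gzmb*, the granzyme that cleaves caspases in target cells, had 3, 6 and 5 counts in WT and 11, 0 and 36 in 5C. Only 5C replicate 3 stood above WT. *Prf1* had 0, 8 and 2 counts in WT and 21, 2 and 26 in 5C, again with replicates 1 and 3 of 5C above WT and replicate 2 within it. The exact two-sided 95% Poisson interval of a count, which covers counting error only, ran from 25.2 to 49.8 for the 36 *Gzmb* counts of 5C replicate 3 and from 0 to 3.69 for a count of 0.

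*Gzma*, the tryptase granzyme of circulating killer and T cells, was almost absent, with 1 count in WT replicate 3 and 2 counts in 5C replicate 3. *Gzmn* had 0 counts in all 6 libraries, where the floor of 3 counts, the one-sided 95% limit of a count of 0, stands at 0.157 CPM in the deepest library and 0.472 CPM in the shallowest, although 91.3% of its windows were unique and expressed granzymes lie on both of its sides. Per kilobase of unique windows and summed over the libraries, *Gzmd* had 279 counts, *Gzmg* 244, *Gzmf* 237, *Gzmc* 168, *Gzme* 101, *Gzmb* 43.98, *Prf1* 23.2, *Gzma* 2.99 and *Gzmn* 0. Per kilobase of exon the order kept *Gzmd* first (189 counts), with *Gzmg* (173) and *Gzmf* (170) next. *Prl8a2* stood far above them at 1575 counts per kilobase of unique windows.

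**Figure D2:**
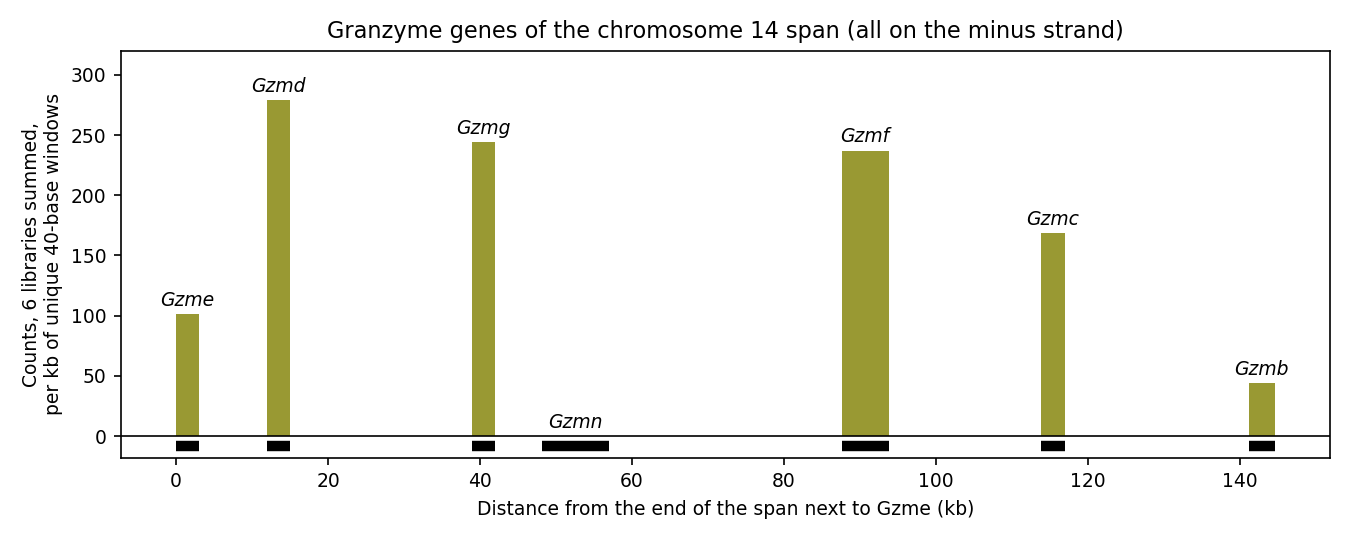
The 7 granzyme genes of chromosome 14 drawn to scale by distance in kb from the end next to *Gzme*, with black bars for the genes and coloured columns for their counts, summed over the 6 libraries, per kb of unique 40-base windows. *Gzmn*, at 0, lies between *Gzmg* at 244 and *Gzmf* at 237.

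*Prl8a2* followed another order. It had 179, 59 and 272 counts in WT and 524, 105 and 397 counts in 5C, which scaled to 9.39, 5.07 and 43.4 CPM for WT and to 31.8, 8.97 and 28.3 CPM for 5C. WT replicate 3, the shallowest library, was the highest, and within WT it exceeded replicate 2 by 8.50-fold (95% interval from counting 6.39 to 11.5). Within 5C, replicate 1 exceeded replicate 2 by 3.56-fold (2.88 to 4.44). The group means, WT at 19.3 ± 20.99 CPM and 5C at 23.0 ± 12.3 CPM (SD, n = 3 each), differed by less than the SD of either group. The ratio of 5C to WT, 1.19 over all libraries, became 3.18 without WT replicate 3 and turned to 0.871 without WT replicate 2, to 0.949 without WT replicate 1 and to 0.965 without 5C replicate 1.

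**Figure D3:**
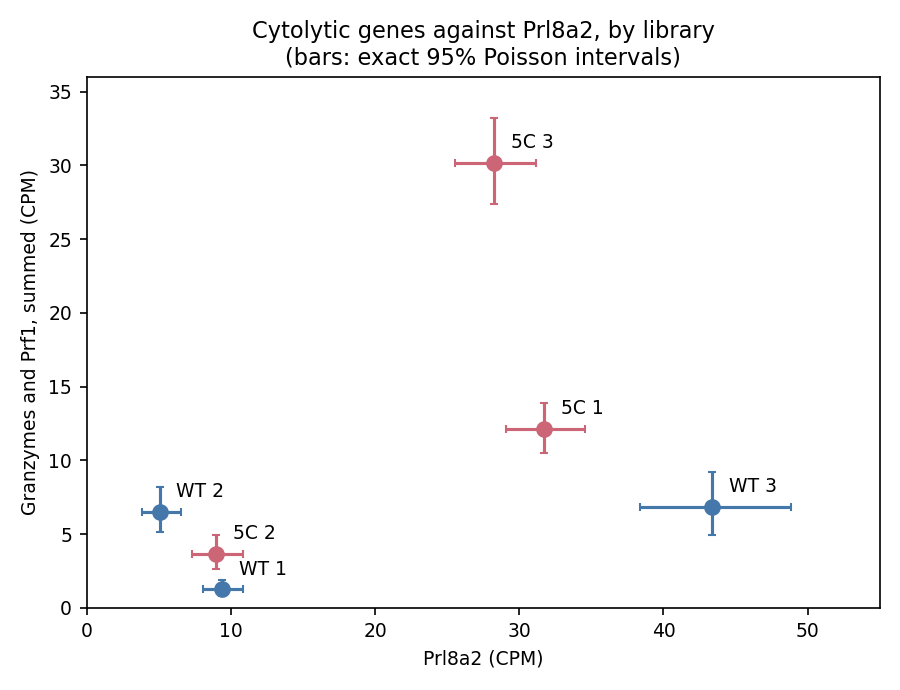
Summed CPM of the 9 cytolytic genes (vertical axis) against CPM of *Prl8a2* (horizontal axis), 1 point per library, with exact 95% Poisson intervals. WT replicate 3 and 5C replicate 3 are both high in *Prl8a2* (43.4 and 28.3 CPM) but lie apart at 6.86 and 30.2 CPM of cytolytic genes.

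The balance between cytolytic genes and *Prl8a2* was not constant. Cytolytic counts were 11.8% (exact binomial 95% interval 7.72% to 17.1%) of their sum with *Prl8a2* in WT replicate 1, 56.3% (47.5% to 64.8%) in WT replicate 2 and 13.7% (10.1% to 17.9%) in WT replicate 3. They were 27.6% (24.4% to 31.0%), 29.1% (21.9% to 37.1%) and 51.6% (48.2% to 55.1%) in the 5C libraries in order. Libraries of the same group thus differed beyond counting error. By contrast, the share of *Gzmd* among the counts of *Gzmc* to *Gzmn* lay between 19.05% in WT replicate 1 and 32.3% in WT replicate 2, and the intervals of all 6 libraries overlapped, the widest from 5.45% to 41.9% on 21 counts and the narrowest from 23.5% to 33.0% on 360.

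To compare the genotypes, all genes that passed the count filter of edgeR, which asks for about 0.772 CPM in at least 3 libraries, were fitted together. Genes were called differentially expressed (DEGs) where the adjusted p was under 0.05 and 5C and WT differed by more than 1.5-fold. *Gzmc*, *Gzmd*, *Gzmf*, *Gzmg* and *Prl8a2* passed the filter, with 4 to 6 libraries over the level, and *Gzma*, *Gzmb*, *Gzme*, *Gzmn* and *Prf1* did not, with 0 to 2. Of the 5 members fitted, 0 were DEGs by the quasi-likelihood test, by DESeq2 or by limma-voom, against 0% of the 16784 genes tested (0 DEGs by edgeR, 11 by DESeq2 and 0 by limma-voom, with 1011 genes, or 6.02%, at an unadjusted p under 0.05 in edgeR). At an unadjusted p under 0.05 with a higher level in 5C there were 3 of the 5 members, against 2.55% of all genes. These 3, *Gzmc*, *Gzmf* and *Gzmg*, are similar neighbours with the same libraries highest and lowest, so they are not separate results. The members were also chosen with earlier results of these data known. No member had every 5C library above every WT library, which held for 6.26% of all genes.

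The fitted change was largest for *Gzmg*, with a log2 fold change of 2.24 ± 0.74 (SE; 95% interval 0.58 to 3.89), or 4.71-fold. Its p in edgeR was 0.0132 unadjusted and 0.781 adjusted. *Gzmc* reached 2.03 ± 0.74, *Gzmd* 1.82 ± 0.82 and *Gzmf* 1.63 ± 0.68 (SE). Their unadjusted p-values in the edgeR fit were 0.0219, 0.0526 and 0.0397, and all 3 had the adjusted p of *Gzmg*. None of these differences passed the correction, and the spread between libraries of a group was large. The biological coefficient of variation, the fitted spread between libraries of a group beyond counting error, was 63.5% for *Gzmd*, 57.4% for *Prl8a2*, 55.3% for *Gzmc*, 53.2% for *Gzmg* and 51.9% for *Gzmf*, against 13.6% in common over all genes. At least 99.2% of the genes tested had a lower one than any of the 5.

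*Gzmm*, a granzyme gene outside the list on chromosome 10, served as a comparison. It had 24, 21 and 7 counts in WT and 34, 17 and 22 in 5C, and its libraries all lay between 1.12 and 2.06 CPM. Its coefficient of variation was 16.5% and its log2 fold change was 0.28 (95% interval -0.34 to 0.89; adjusted p 0.844 in edgeR). *Gzmk*, another granzyme gene, had 1 count in WT replicate 1 and 0 in the other libraries.

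*Prl8a2* had a log2 fold change of 0.38 ± 0.69 (SE; 95% interval -1.16 to 1.92) and an adjusted p of 0.914 in edgeR, an interval that holds changes of either sign. For the members outside the fit, CPM was compared by an exact two-sided permutation test, which with 3 libraries against 3 cannot go below p = 0.1. Its p was 0.3 for *Gzme* and *Prf1*, 0.8 for *Gzmb* and 1 for *Gzma*. The mean CPM in 5C was 3.71 times that in WT for *Gzme*, 3.28 times for *Prf1* and 2.196 times for *Gzmb*, with 5C standard deviations of 1.02, 0.854 and 1.33 CPM about means of 1.196, 1.10 and 1.08 CPM.

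**Figure D4:**
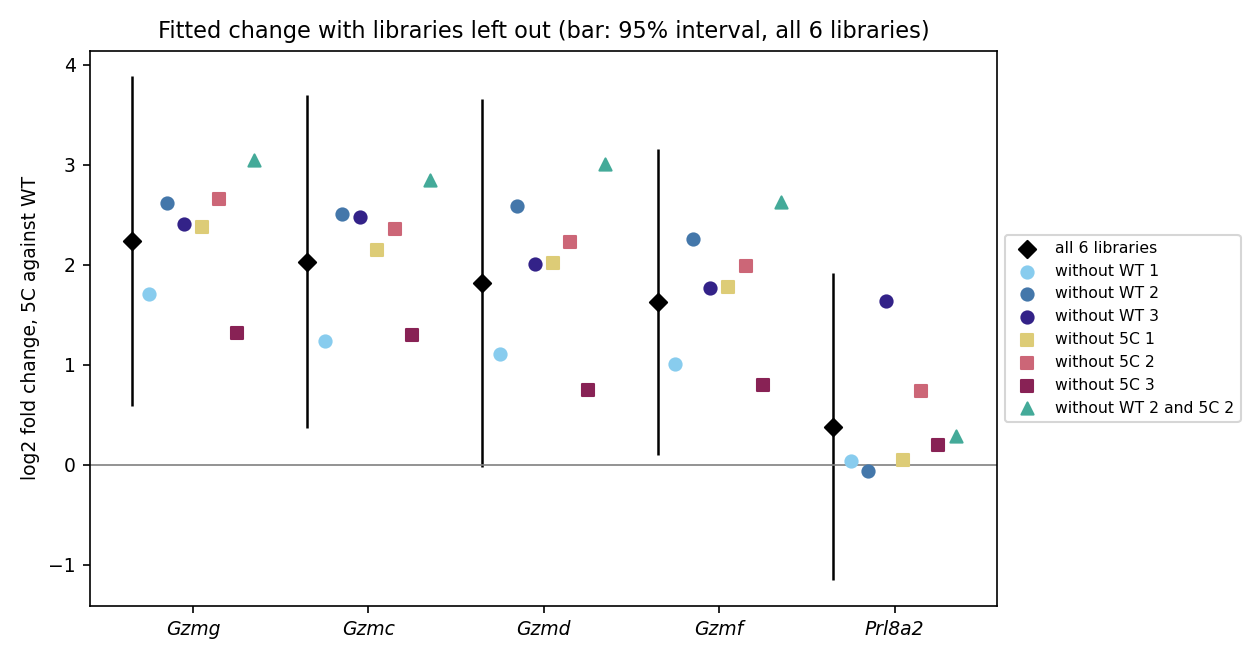
Log2 fold change of 5C against WT for the 5 fitted members with all 6 libraries (black diamonds, bars for 95% intervals) and with libraries left out (coloured symbols). The 4 granzymes drop without 5C replicate 3 (*Gzmd* from 1.82 to 0.75) or WT replicate 1 (to 1.11), and *Prl8a2* moves from -0.06 without WT replicate 2 to 1.64 without WT replicate 3.

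The size of the granzyme differences rested on single libraries. Without 5C replicate 3 the log2 fold changes were 1.32 for *Gzmg*, 1.30 for *Gzmc*, 0.80 for *Gzmf* and 0.75 for *Gzmd*, and without WT replicate 1 they were 1.71, 1.24, 1.01 and 1.11 in the same order. Without both libraries low in Y-linked transcripts, a fit added after the data were seen, they rose to 3.05, 2.85, 2.63 and 3.01 while *Prl8a2* stayed at 0.29. In that fit of 17355 genes the unadjusted p was 0.00265 for *Gzmg* and 0.0102 for *Gzmd* in edgeR, and 1.13% of genes were higher in 5C at an unadjusted p under 0.05. Adjusted p stayed at 0.837 for the 4 granzymes.

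The call also turned on the count filter. With every gene that had a count (33139 genes), 6 members were DEGs in edgeR, all higher in 5C: *Gzmg* with an adjusted p of 2.64e-08, *Gzmd* with 2.46e-06, *Gzmc* with 6.85e-06, *Gzmf* with 1.34e-04, *Gzme* with 9.53e-04 and *Prf1* with 0.00904. In that fit 0.963% of genes were DEGs and 0.0634% were DEGs higher in 5C. The fold changes hardly moved (2.23 for *Gzmg* and 1.81 for *Gzmd*), while the SE fell from 0.74 to 0.35 for *Gzmg* and from 0.82 to 0.32 for *Gzmd*. The spread between libraries in the counts above is the same in both fits. *Prl8a2* and *Gzmb* were not called there, with adjusted p-values of 0.131 and 0.133.

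The name killer cell was checked against marker genes. Of 33 listed genes of killer and T cells, 23 had at most 3 counts in any library, among them 6 of the 8 defining ones. *Ncr1*, the natural killer receptor NKp46, had 0 counts in 5 libraries and 3 in 5C replicate 3, and *Nkg7*, a granule membrane protein, had 1 count in WT replicate 1, 2 in 5C replicate 3 and 0 elsewhere. The receptor genes *Klrb1c* and *Klrd1* had 2 and 1 counts in all, *Cd3e*, of the T cell receptor complex, had 0, and *Cd8a* had 1. *Il2rb*, the interleukin 15 receptor chain on which killer cells depend, had 1, 2 and 7 counts in WT and 2, 3 and 19 in 5C. Scaled for depth, *Il2rb* stood at 1.35 CPM in 5C replicate 3 and 1.12 CPM in WT replicate 3, against 0.0525 to 0.256 CPM elsewhere. *Eomes*, a transcription factor of killer cells and of the early embryo, did not follow the granzymes, with 65, 31 and 10 counts in WT and 61, 36 and 47 in 5C. At this depth the granzyme transcripts were not accompanied by a readable set of killer cell receptors. Receptor transcripts much rarer than the granzymes would lie at or under the floor of 3 counts. The check therefore cannot tell whether killer cells were present, and the genes are called here by their symbols. In bulk libraries, fewer cells of a type and less RNA per cell cannot be told apart.

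Of the killer and T cell list, 5 genes were tested and 5 had a positive log2 fold change, 0 with an unadjusted p under 0.05, with a median of 0.33 against -0.00 over all genes. The median of the list became 0.06 without 5C replicate 3. The summed level of the list was 44.1 to 45.95 CPM in WT. It was 44.8, 51.7 and 61.4 CPM in the 5C libraries in order, highest where the granzymes were highest. But 5C replicate 1, next highest in cytolytic CPM, lay within the WT range, whereas 5C replicate 2, low in cytolytic CPM, lay above it. Such a sum weighs abundant genes most. *Itga2* alone stood at 8.93 to 12.04 CPM and *Serpinb6b* at 3.67 to 8.04 CPM. The highest defining gene other than *Eomes* was *Il2rb*, at 1.35 CPM in 5C replicate 3. The sum is therefore not a level of killer cells. Of 12 leukocyte genes all were tested, 10 were higher in 5C and 0 had an unadjusted p under 0.05, with a median of 0.12 that became -0.01 without WT replicate 2. *Ptprc*, the antigen CD45 of all white blood cells, had 97, 65 and 30 counts in WT and 92, 70 and 113 in 5C, and the summed leukocyte level ranged only from 69.2 to 86.3 CPM among WT libraries and from 75.4 to 86.5 CPM among 5C libraries. Of the machinery that loads and releases granules, 14 of 15 listed genes could be tested, 10 of them lower in 5C (median -0.11, and 0.03 without WT replicate 1). Of the 14, 1 gene had an unadjusted p under 0.05 in edgeR, against 6.02% of all genes. This gene, *Igf2r*, the mannose 6-phosphate receptor that sorts granzymes to granules and clears IGF2, was at -0.30 ± 0.09 (SE). Its adjusted p in edgeR was 0.781. *Srgn*, the granule proteoglycan that binds granzymes, was at 0.59 ± 0.27 with an adjusted p of 0.781. The mast cell and chymase genes next to the granzymes were nearly silent. Of the 8 matched to a symbol, 5 had 0 counts in all libraries, none had more than 3 in any, and of 11 mast cell genes 3 were tested, with 0 at an unadjusted p under 0.05 and a median of -0.19, which turned to 0.32 without WT replicate 1.

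Other tissues around the embryo could be present in the lysates, and their genes were listed beside the members. Of 17 further genes of decidual stroma, 15 were tested, 5 were higher and 10 lower in 5C, 0 had an unadjusted p under 0.05, and the median was -0.08, or 0.04 without WT replicate 1. Their summed level was 163, 122 and 162 CPM in the WT libraries and 138, 136 and 155 CPM in the 5C libraries in order. It was lowest in WT replicate 2, as *Prl8a2* was, and nearly as high in WT replicate 3 as in WT replicate 1. This sum too weighs abundant genes most. *Des* alone stood at 18.95 to 32.03 CPM. The highest value of a defining gene other than *Prl8a2* was 3.83 CPM, of *Tdo2* in WT replicate 1. The sum is therefore not a level of decidual tissue. *Prl3c1*, the other decidual prolactin of the list, had 2 counts in 5C replicate 3 and 0 elsewhere. *Tdo2*, tryptophan dioxygenase, had 73, 8 and 15 counts in WT and 25, 12 and 40 in 5C. The progesterone receptor gene *Pgr* had 14, 18 and 9 counts in WT and 15, 17 and 21 in 5C, and the oestrogen receptor gene *Esr1* had 4 to 15 counts per library. None of these 4 genes had its highest CPM in WT replicate 3, where *Prl8a2* had its highest. Of them, *Tdo2* and *Esr1* were lowest in WT replicate 2, as *Prl8a2* was, and *Pgr* was lowest in WT replicate 1. These orders rest on few counts. In WT replicate 3, *Pgr* stood at 1.44 CPM on 9 counts, close to its highest level of 1.55 CPM. *Esr1* stood there at 0.957 CPM on 6 counts, close to its highest level of 1.07 CPM.

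The trophoblast genes that could be tested were mostly highest in the library where the granzymes were highest. Of 34 listed, 9 were tested, 7 had a positive log2 fold change (median 0.47, which turned to -0.61 without 5C replicate 3), 1 had an unadjusted p under 0.05 (*Hand1*, lower in 5C), and 7 of the 9 were highest in 5C replicate 3. The share of all genes highest in 5C replicate 3 was not counted. Some of these 7 are prolactin family genes with similar patterns, so they are not separate results. *Prl3d1*, placental lactogen I of trophoblast giant cells, had 8, 20 and 4 counts in WT and 14, 1 and 66 in 5C. The summed trophoblast level was 19.8 to 32.5 CPM in WT, and it was 21.03, 9.99 and 61.7 CPM in the 5C libraries in order. It was highest where the granzymes were highest and lowest in 5C replicate 2, whereas cytolytic CPM was lowest in WT replicate 1. In 5C replicate 1, next highest in cytolytic CPM, it lay within the WT range. The defining genes *Ctsq* and *Syna* had at most 1 count in any library, *Tpbpa* of the spongiotrophoblast had 0 to 14, and *Prl3b1*, placental lactogen II, had 55, 30 and 8 counts in WT and 29, 13 and 25 in 5C. *Serpinb9b*, a serpin gene of the killer and T cell list that was chosen after its values were seen, had 14, 8 and 13 counts in WT and 18, 1 and 62 in 5C.

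Visceral yolk sac genes took a different course. Of 15 listed all were tested and all had a negative log2 fold change, 3 with an unadjusted p under 0.05 (median -2.003, which turned to 0.73 without WT replicate 1). All 15 were highest in WT replicate 1, the library with the lowest cytolytic CPM. Their summed level was 6564, 275 and 548 CPM in the WT libraries and 206, 189 and 1338 CPM in the 5C libraries. After WT replicate 1 it was highest in 5C replicate 3, the library with the highest cytolytic CPM. The part of trophoblast, decidual or yolk sac RNA in the granzyme and *Prl8a2* levels was not tested.

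**Figure D5:**
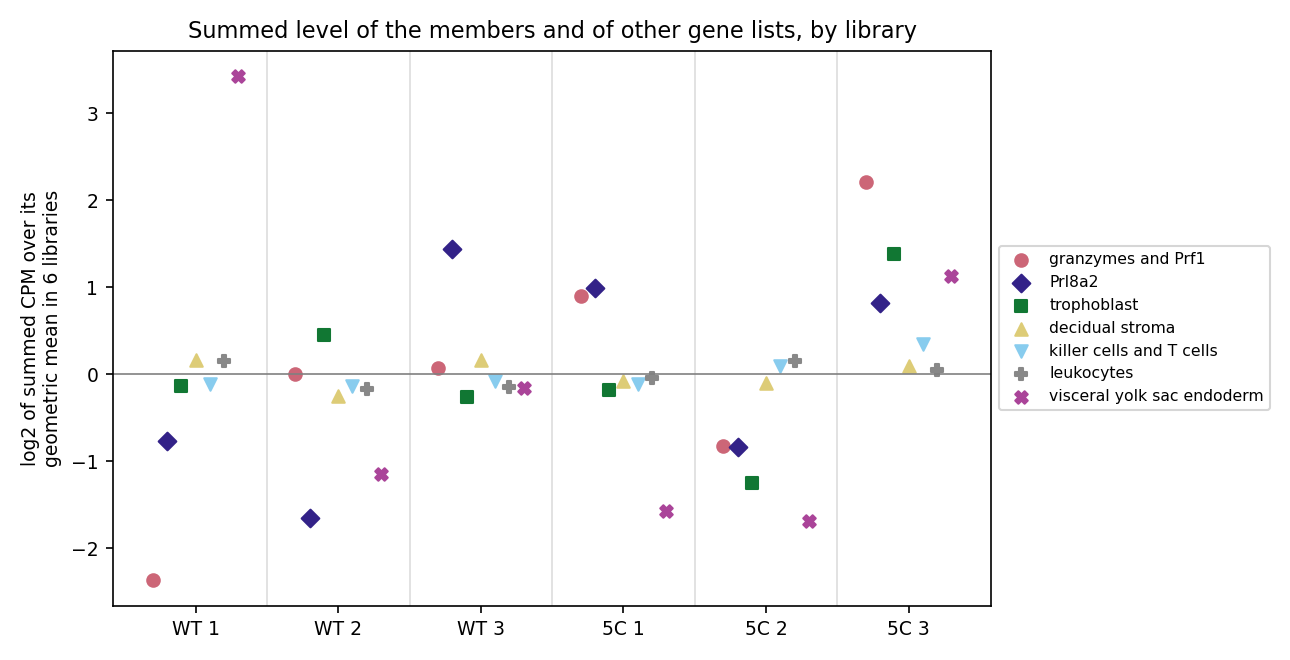
Log2 of the summed CPM of the 9 cytolytic genes, of *Prl8a2* and of 5 gene lists over the geometric mean of the 6 libraries, 1 column of symbols per library. Each sum weighs the most abundant genes of its list most. The cytolytic genes run from -2.37 in WT replicate 1 to 2.21 in 5C replicate 3, the trophoblast list from -1.25 in 5C replicate 2 to 1.38 in 5C replicate 3, and the leukocyte list stays within -0.17 and 0.15.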

How the data were processed

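Strand-specific poly(A) libraries were aligned by the authors with STAR to GRCm38, and raw counts per Ensembl gene, unnormalized and unfiltered, were deposited. The strand column used is not given in the sources used here. Every pair of libraries differed by more than sampling noise. Symbols were matched through GENCODE identifiers. With edgeR 4.0.16 (R 4.3.3), genes were kept by filterByExpr, scaled by TMM and tested two-sided over all 6 libraries by the legacy quasi-likelihood F-test, with Benjamini-Hochberg adjustment over all genes tested. CPM used TMM-scaled totals. The procedure was tested on simulated data. Nothing says that replicates came from separate litters, so p-values measure the spread between these pools. Members and lists were chosen with earlier results of these data known. Named genes were the members, *Mir483*, *Gzmk*, *Gzmm*, *Xist*, *Ddx3y*, each list's defining markers and up to 3 tested genes of smallest p, and the genes of most similar pattern. *Serpinb9b* falls under none of these rules and was added after its values were seen. Unique windows were exact matches to GENCODE transcripts of other genes, in place of a genome. Alternatives were other scalings, filters and tests (DESeq2 1.42.0, limma-voom of limma 3.58.1), a replicate block and libraries left out.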

Additional observations from a re-analysis of the deposited data

How the results depend on the processing

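Over all genes the count of DEGs was 0 and became 319 with no count filter, 11 with DESeq2 and 3 with robust moderation, and ran from 0 to 1 over the fits that left out 1 library. The count of members called was 0 and became 6 with no count filter. It was 0 in the other 15 alternatives, of which the filter of at least 10 counts in every library kept only *Prl8a2* for testing. The cause of the smaller standard errors with no filter was not tested. Log2 fold changes of *Gzmc*, *Gzmd*, *Gzmf* and *Gzmg* were positive in all 15 alternatives that tested them, and over the fits that left out 1 library they ran from 1.24 to 2.51, 0.75 to 2.59, 0.80 to 2.26 and 1.32 to 2.66. That of *Prl8a2* was positive in 15 of 16 and ran from -0.06 (without WT replicate 2) to 1.64 (without WT replicate 3). Blocked on replicate number, the log2 fold changes were 1.86 for *Gzmg*, 1.80 for *Gzmc*, 1.49 for *Gzmd*, 1.37 for *Gzmf* and 0.63 for *Prl8a2*, each with an adjusted p of 0.888 in edgeR, and 0 genes were called. Deviations of same-numbered libraries correlated at -0.17, 0.20 and -0.17, so the numbers were not taken as pairs. Depth limited the rarer members: 5 of the 10 fell below the count filter, and the floor of 3 counts stands at 0.472 CPM in the shallowest library.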

Other observations

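The 10 genes outside the list whose log2 CPM followed the summed cytolytic genes most closely over the 6 libraries (Pearson r from 0.977 to 0.993) were *Dctn3*, *Gm37023*, *Gm28424*, *Jph3*, *D3Ertd751e*, *Zfp59*, *Mipol1*, *Sc5d*, *Plekha2* and *Lgals3*. They were chosen for this likeness, so r is a description over 6 points that share library and depth. For 8 of the 10 the highest library was less than 2 times the lowest in CPM, against 24.0 times for the cytolytic sum. *Lgals3*, the gene of galectin-3, varied the most of the 10, with 15, 26 and 16 counts in WT and 40, 16 and 79 in 5C, or 7.15 times between the libraries. Of the genes tested, 122 or 0.727% had an r over 0.9.

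The 5 genes closest to *Prl8a2* were *Erv3*, *Padi2*, *AC121824.1*, *Tmem161b* and *Fn3k*, with r from 0.975 to 0.986. *Erv3* had 197, 61 and 275 counts in WT and 429, 97 and 497 in 5C, so that its range between libraries, 8.38 times, came near the 8.57 times of *Prl8a2*. For 3 of the 5 genes the range was under 2 times. No gene was shared between the 2 groups of similar genes.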
